A study of Rattus norvegicus with 9 samples.

Results

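The osteoclast-like fusion genes are a list of 8 genes, Ocstamp, Dcstamp, Tnfrsf11a, Oscar, Itgb3, Nfatc1, Acp5 and Car2. They were chosen by name, though with earlier results of these data known. Of the 20442 genes in the deposited table, 7 of the 8 were found by symbol. Dcstamp was found through its NCBI gene ID, because its row carries the provisional symbol LOC103690326. All 8 passed the filter on low values that left 11141 genes for testing.

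RNA sequencing was done on bone marrow-derived dendritic cells of wild-type rats. They are antigen-presenting cells grown from marrow precursors, here with 20 ng/mL of GM-CSF and 20 ng/mL of IL-4. LPS+EVs cultures (n = 3) received the bacterial endotoxin LPS and extracellular vesicles from ASCs, whose dose the labels do not give, LPS cultures (n = 3) received LPS alone, and Control cultures (n = 3) received neither. The labels give LPS as 1 µg/mL for 24 h, and beside it a concentration of 50 ng/mL without the name of its agent or the groups that received it. If the unnamed agent was added with LPS, it cannot be told apart from LPS in the comparisons with Control. If it was the vesicles, only the LPS+EVs cultures received it. The replicates are labelled as biological, but separate animals are not stated, so the p-values measure the spread between these cultures. Age, sex and strain of the rats are not given in the sources used here.

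Osteoclasts are the multinucleated, bone-resorbing cells that arise when myeloid precursors fuse. The cytokine RANKL (Tnfsf11) binds its receptor RANK (Tnfrsf11a) on the precursor, and signals from RANK and from ITAM-linked co-receptors such as OSCAR induce the transcription factor NFATc1, which switches on fusion genes and resorption genes. Dendritic cells share the myeloid precursor with osteoclasts, and in mice and humans immature dendritic cells can be turned into osteoclasts in culture. DC-STAMP, encoded by Dcstamp, was named for its discovery in dendritic cells.

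Depth ran between 32148519 and 39407116 assigned reads a library, recovered from the whole-read steps of the FPKM values (fragments per kilobase of gene length, relative to each library's assigned reads). The lowest count behind any value of the 8 genes was 112 reads, for Tnfrsf11a in Control library 2, where counting error alone gives an exact Poisson interval of 1.01 to 1.47 FPKM at the 95% level. Counting error does not cover the spread between cultures. Of 12 dendritic cell markers 10 passed the filter, among them the integrin Itgax at 29.8 to 52.0 FPKM in all 9 libraries, the chemokine receptor gene Ccr7 and the transcription factor genes Irf4, Batf3 and Zbtb46. The other two, Flt3 and Xcr1, were at or near 0, with at most 0.108 FPKM. With LPS, Ccr7 rose (1.56) and Ciita (-2.23) and Cd1d1 (-0.85) fell (limma, adjusted p = 0.0288, 0.0185 and 0.00546), and with the library number as a block 1 marker was called higher and 5 lower. Library 2 of every group stood apart in its antigen-presentation genes: Cd74 was at 6102 FPKM in LPS+EVs library 2, 5855 in LPS library 2 and 6137 in Control library 2, against 939 to 2550 FPKM in the 6 other libraries. Among the markers of mature osteoclasts, the calcitonin receptor Calcr was not matched and Siglec15 did not exceed 0.667 FPKM. The other osteoclast markers, Ctsk, Mmp9 and Atp6v0d2, were present in every library and passed the test in no comparison.

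RefSeq promoter windows, running from 250 bases before to 50 bases after an annotated gene start on the GRCr8 assembly, were matched for 3 of the 8 genes. They are shown because NFATc1 is known to act on Acp5 and Oscar in mouse and human osteoclasts, and because Ocstamp gave the most negative difference between LPS and Control among the 8 genes. Each is written 5′ to 3′ on the gene's own strand, and capitals mark the NFAT core GGAAA, or TTTCC where it lies on the opposite strand. The Ocstamp window lies at chr3:174560858-174561157 on the minus strand, the Oscar window at chr1:74522633-74522932 on the plus strand, and the window of the more 3′ of the 2 Acp5 starts at chr8:28943880-28944179 on the minus strand.
Ocstamp: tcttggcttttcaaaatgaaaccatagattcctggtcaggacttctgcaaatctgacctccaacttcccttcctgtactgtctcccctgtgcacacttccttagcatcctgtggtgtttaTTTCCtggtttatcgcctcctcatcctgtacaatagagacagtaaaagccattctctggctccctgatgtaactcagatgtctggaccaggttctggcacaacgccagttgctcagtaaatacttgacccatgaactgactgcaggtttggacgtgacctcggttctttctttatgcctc
Oscar: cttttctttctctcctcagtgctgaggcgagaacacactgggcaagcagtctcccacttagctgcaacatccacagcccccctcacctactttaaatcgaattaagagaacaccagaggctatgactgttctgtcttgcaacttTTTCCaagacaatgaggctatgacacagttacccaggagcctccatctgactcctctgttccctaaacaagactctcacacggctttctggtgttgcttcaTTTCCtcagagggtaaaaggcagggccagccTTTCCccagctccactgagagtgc
Acp5: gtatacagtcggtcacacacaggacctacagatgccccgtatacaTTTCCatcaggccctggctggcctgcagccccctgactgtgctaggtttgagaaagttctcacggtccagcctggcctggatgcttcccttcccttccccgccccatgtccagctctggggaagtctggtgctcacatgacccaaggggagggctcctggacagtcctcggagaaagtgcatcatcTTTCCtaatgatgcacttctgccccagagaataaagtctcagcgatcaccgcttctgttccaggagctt

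The Ocstamp window held 1 NFAT core, the Oscar window 3 and this Acp5 window 2, all of them on the opposite strand. The window of the other Acp5 start, at chr8:28945881-28946180, held none. Of all 33469 RefSeq windows of this length, 62.7% held at least 1 GGAAA core and 10.1% held at least 3, so a match of these 5 letters is common. The Oscar window also held 1 PU.1 core, GAGGAA, found in 27.6% of all windows. Its last letters, GGAA, are the first letters of the NFAT core, and it overlaps 1 of the 3 marked cores. The AP-1 motif TGANTCA, searched on both strands, was in none of the 4 windows and in 7.33% of all windows. These matches describe letters and not binding.

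The 8 genes did not move as a block under LPS. In the fit without the library number, Ocstamp and Car2 fell and Acp5 rose against Control. Dcstamp, Tnfrsf11a, Oscar, Itgb3 and Nfatc1 did not pass that test. With the library number as a block, Tnfrsf11a and Itgb3 also passed as higher and Nfatc1 as lower (limma, adjusted p = 0.0111, 0.0416 and 0.0496). In LPS+EVs cultures against Control, Ocstamp and Car2 fell and Acp5 and Itgb3 rose. With the block Tnfrsf11a rose there as well (limma, adjusted p = 0.00317). Between LPS+EVs and LPS none of the 8 passed. The plot of FPKM by library shows every value behind these statements.

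**Figure D1:**
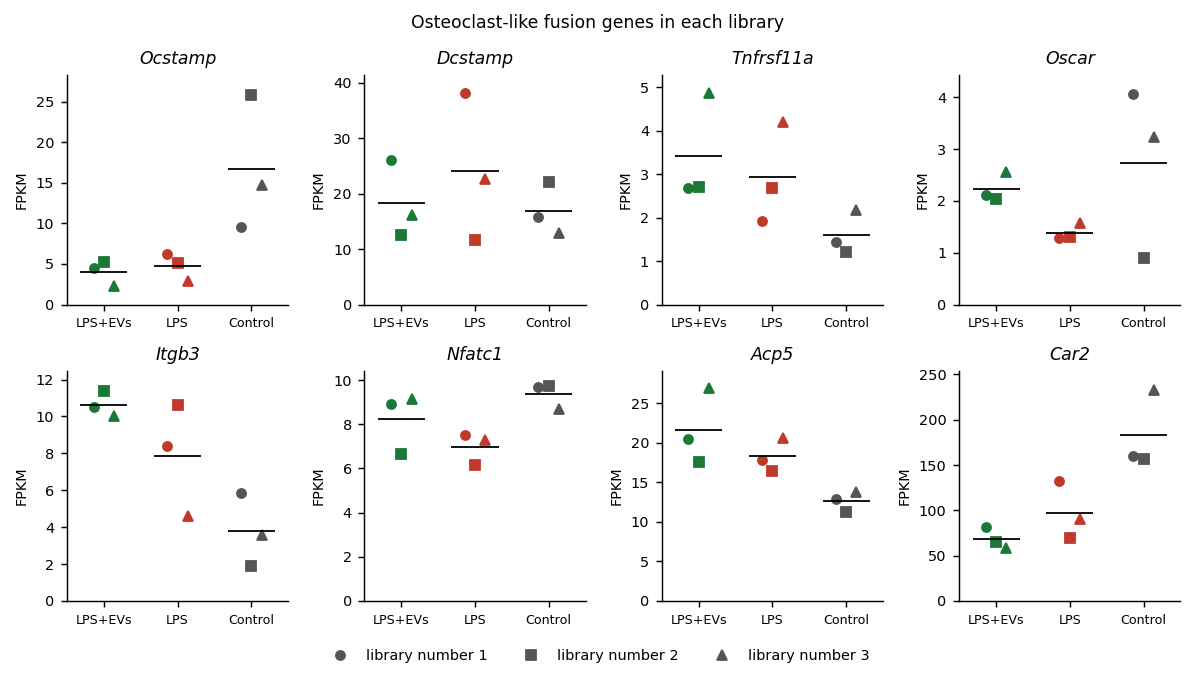
FPKM of the 8 genes in each library of the LPS+EVs, LPS and Control groups (n = 3 each), with a symbol per library number and a bar at the group mean. All LPS+EVs and LPS libraries lie below all Control libraries for Ocstamp and Car2 and above them for Acp5, while the 3 groups overlap for Dcstamp.

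Ocstamp encodes OC-STAMP, a multi-pass membrane protein needed in mouse osteoclast precursors for cell-cell fusion. It was at 4.54, 5.26 and 2.32 FPKM in LPS+EVs libraries 1, 2 and 3, at 6.19, 5.08 and 2.90 FPKM in LPS libraries, and at 9.49, 25.8 and 14.7 FPKM in Control libraries. Every treated library lay below every Control library, and Control library 2 was the highest of the 9. LPS cultures averaged 4.72 ± 1.67 FPKM and Control cultures 16.7 ± 8.32 FPKM (SD, n = 3 each), which places LPS at 28.3% of the Control mean. On the log2(FPKM + 1) scale used for all tests, which understates changes of low genes, the difference was -1.56 with a standard error of 0.39 (limma, adjusted p = 0.0125). For LPS+EVs, which averaged 4.04 ± 1.53 FPKM, the difference from Control was -1.75 with a standard error of 0.39 (limma, adjusted p = 0.00693).

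Dcstamp encodes DC-STAMP, the related membrane protein without which mouse osteoclast precursors stay mononucleated. It was at 26.1, 12.6 and 16.1 FPKM in LPS+EVs libraries, at 38.2, 11.6 and 22.6 FPKM in LPS libraries, and at 15.8, 22.1 and 12.9 FPKM in Control libraries. The groups overlapped, and library 2 was the lowest of both treated groups but the highest of Control. LPS minus Control was 0.37 on the log2 scale with a 95% interval of -0.57 to 1.32 (limma, adjusted p = 0.498), which leaves room for a fold change of 0.673 to 2.49 on that scale. With libraries 1 and 3 alone the difference was 0.99 and passed (limma, adjusted p = 0.0342), and without LPS library 1 it was -0.02. LPS+EVs minus Control was 0.08 (limma, adjusted p = 0.894).

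The levels of this pair differed in their proportion to each other, a pattern picked out after the values were seen. The ratio of Dcstamp to Ocstamp FPKM was 5.75, 2.40 and 6.95 in LPS+EVs libraries, 6.18, 2.29 and 7.78 in LPS libraries, and 1.67, 0.858 and 0.874 in Control libraries. All 6 treated libraries lay above all 3 Control libraries, with library 2 the lowest in each treated group. The mean log2 ratio was 2.26 in LPS cultures and 0.11 in Control cultures, a difference of 2.15 or 4.45-fold (two-sided exact permutation test, p = 0.1, the smallest that 20 splits of 3 against 3 allow). LPS+EVs cultures, at 2.19, differed from Control by 2.09 (exact permutation p = 0.1) and from LPS by -0.07 (exact permutation p = 0.8). With groups fully separated the test can give no value other than 0.1, and its splits ignore the library numbers. It therefore adds no support to a pattern picked after its values were seen. FPKM is scaled to gene length, so the ratio compares levels per length.

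**Figure D2:**
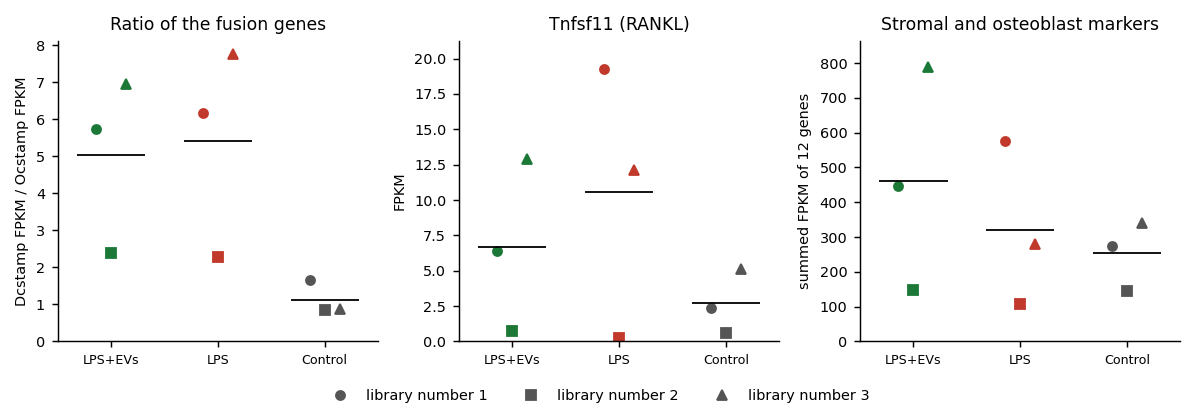
Ratio of Dcstamp to Ocstamp FPKM (left), Tnfsf11 FPKM (middle) and the summed FPKM of 12 stromal and osteoblast markers (right) in each LPS+EVs, LPS and Control library, with bars at the group means. Library 2 has the lowest Tnfsf11 and the lowest marker sum in every group, and the ratio is 2.29 or more in the treated libraries and 1.67 or less in Control.

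Tnfrsf11a encodes RANK, the receptor for RANKL. It was at 2.69, 2.70 and 4.86 FPKM in LPS+EVs libraries, at 1.93, 2.68 and 4.21 FPKM in LPS libraries, and at 1.43, 1.22 and 2.17 FPKM in Control libraries. Library 3 was the highest of each group, and LPS and Control overlapped only through LPS library 1 and Control library 3. LPS minus Control was 0.57 with a standard error of 0.27 (limma, adjusted p = 0.123), and with the library number as a block the adjusted p was 0.0111. LPS+EVs minus Control was 0.74 with a standard error of 0.27 (limma, adjusted p = 0.0522), with an adjusted p of 0.00317 under the block. All 3 same-numbered pairs were higher in each of these comparisons, as they were for 24% of all genes in LPS against Control and 25.7% in LPS+EVs against Control.

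Oscar encodes a collagen-binding co-receptor that signals through the ITAM adaptor FcRγ. It was at 2.12, 2.04 and 2.55 FPKM in LPS+EVs libraries, at 1.29, 1.31 and 1.57 FPKM in LPS libraries, and at 4.07, 0.893 and 3.23 FPKM in Control libraries. The spread within Control exceeded the whole range of the treated libraries, with Control library 2 the lowest of the 9. LPS minus Control was -0.53 with a standard error of 0.32 (limma, adjusted p = 0.221). Without Control library 2 it was -0.96 and passed (limma, adjusted p = 0.00441). LPS+EVs minus Control was -0.09 (limma, adjusted p = 0.843), and without Control library 2 it was -0.52 and passed (limma, adjusted p = 0.0404).

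Itgb3 encodes integrin β3, which pairs with the αv chain (Itgav) in the adhesion receptor of the osteoclast and with the αIIb chain (Itga2b) in platelets. It was at 10.5, 11.4 and 10.0 FPKM in LPS+EVs libraries, at 8.40, 10.6 and 4.60 FPKM in LPS libraries, and at 5.84, 1.88 and 3.59 FPKM in Control libraries. LPS+EVs libraries lay close together and above all Control libraries, whereas LPS library 3 lay below Control library 1. LPS+EVs cultures averaged 10.6 ± 0.698 FPKM and Control cultures 3.77 ± 1.99 FPKM (SD, n = 3 each), a difference of 1.37 with a standard error of 0.34 on the log2 scale (limma, adjusted p = 0.0118). LPS minus Control was 0.92 with a standard error of 0.34 (limma, adjusted p = 0.0594, and 0.0416 with the block), and without LPS library 3 it was 1.22 and passed (limma, adjusted p = 0.0207). With libraries 1 and 3 alone it was 0.37 (limma, adjusted p = 0.326), and without Control library 2 it was 0.60 (limma, adjusted p = 0.18).

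Both α chains rose with LPS. Itgav was at 34.1, 26.0 and 26.3 FPKM in LPS+EVs libraries, at 36.5, 27.6 and 35.6 FPKM in LPS libraries, and at 14.1, 10.2 and 15.2 FPKM in Control libraries (LPS minus Control 1.28, limma, adjusted p = 0.000982). Itga2b changed by 1.40 (limma, adjusted p = 0.0011). As Itga2b and Itgb3 are also platelet genes, the megakaryocyte and platelet markers were summed: 662 to 1471 FPKM in LPS+EVs libraries, 656 to 1959 in LPS libraries and 463 to 1099 in Control libraries over 9 genes. Most of each sum was the platelet chemokine gene Pf4, at 599 to 1382 FPKM in LPS+EVs libraries, 591 to 1818 in LPS libraries and 431 to 1060 in Control libraries. The collagen receptor gene Gp6 was at 18.2 to 50.3 FPKM in LPS+EVs libraries, 14.9 to 55.7 in LPS libraries and 21.4 to 35.1 in Control libraries. Of the 4 of these markers that were tested, 2 rose with LPS (Itga2b and Ppbp) and none fell. The marker Selp did not pass the filter and was at 3.5, 0 and 3.52 FPKM in Control libraries. It did not exceed 0.367 FPKM in LPS libraries or 0.478 FPKM in LPS+EVs libraries. With the block Pf4 was called too, at a difference of 0.57 (limma, adjusted p = 0.00501 with the block and 0.368 without). The receptor genes Gp9 and Gp1ba did not exceed 0.093 FPKM in any library. The part of such cells in the Itgb3 values was not tested. In bulk RNA a larger share of a cell type and more RNA per cell cannot be told apart.

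Nfatc1 encodes the transcription factor placed at the centre of the osteoclast programme. It was at 8.94, 6.64 and 9.15 FPKM in LPS+EVs libraries, at 7.52, 6.15 and 7.31 FPKM in LPS libraries, and at 9.68, 9.74 and 8.68 FPKM in Control libraries. All LPS libraries lay below all Control libraries, and LPS+EVs libraries overlapped both. LPS minus Control was -0.38 with a standard error of 0.15 (limma, adjusted p = 0.0704), and the adjusted p was 0.0496 with the library number as a block. Over the main and alternative settings this difference ranged between -0.426 and -0.1859 (limma, adjusted p = 0.04585 to 0.2467). LPS+EVs minus Control was -0.18 (limma, adjusted p = 0.366) and turned to 0.03 under median-of-ratios scaling.

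Acp5 encodes tartrate-resistant acid phosphatase (TRAP), the enzyme stained to identify osteoclasts, which macrophages and dendritic cells also make. It was at 20.5, 17.5 and 26.9 FPKM in LPS+EVs libraries, at 17.8, 16.4 and 20.6 FPKM in LPS libraries, and at 12.9, 11.2 and 13.8 FPKM in Control libraries. Every treated library lay above every Control library, and within each group the order of the libraries was 3, 1, 2. LPS cultures averaged 18.3 ± 2.14 FPKM and Control cultures 12.6 ± 1.34 FPKM (SD, n = 3 each), a difference of 0.50 with a standard error of 0.17 (limma, adjusted p = 0.0439). That call was lost in 8 of the alternative settings, among them without a filter on low values (limma, adjusted p = 0.0718) and without each Control library in turn (limma, adjusted p = 0.0669 to 0.13). LPS+EVs cultures, at 21.6 ± 4.80 FPKM, differed from Control by 0.72 with a standard error of 0.17 (limma, adjusted p = 0.00984).

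Car2 encodes carbonic anhydrase II, which supplies the protons that osteoclasts secrete and is also abundant in red cells. It was at 81.7, 65.0 and 58.4 FPKM in LPS+EVs libraries, at 132, 69.7 and 90.3 FPKM in LPS libraries, and at 159.6, 157 and 233 FPKM in Control libraries. Every treated library lay below every Control library. LPS cultures averaged 97.5 ± 32 FPKM and Control cultures 183 ± 43.2 FPKM (SD, n = 3 each), a difference of -0.93 with a standard error of 0.25 (limma, adjusted p = 0.0191). Without Control library 3 it was -0.74 and missed the threshold (limma, adjusted p = 0.068). LPS+EVs cultures averaged 68.4 ± 12 FPKM, 37.3% of the Control mean, a difference of -1.40 with a standard error of 0.25 (limma, adjusted p = 0.00293).

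Red cell and neutrophil markers moved in the same direction as Car2 and Ocstamp. The erythroid markers over 9 genes summed to 3.98, 5.62 and 9.11 FPKM in LPS+EVs libraries 1, 2 and 3. They summed to 5.28, 9.98 and 8.55 FPKM in LPS libraries and to 55.8, 109 and 448 FPKM in Control libraries. Control library 3, the highest for Car2, was also the highest in this sum. Within LPS and within LPS+EVs the order of the libraries in this sum was the reverse of that of Car2. The sum was mostly the globin Hba-a2, which can share reads with its near-identical copy Hba-a1, with LPS minus Control at -4.42 (limma, adjusted p = 0.00132), while the red cell genes Car1, Alas2 and Hbb-b1 were at or near 0, with at most 0.0358 FPKM. The neutrophil markers summed to 4.48 to 18.4 FPKM in LPS+EVs libraries, 1.94 to 7.42 in LPS libraries and 31.2 to 265 in Control libraries over 9 genes, of which 5 were tested, 3 fell with LPS (5 with the block) and none rose. In Control libraries 1, 2 and 3 the neutrophil sum was 265, 31.2 and 127 FPKM. That is the reverse of the order of Ocstamp in these libraries (9.49, 25.8 and 14.7 FPKM). The granule genes Mpo, Elane and Prtn3 did not exceed 0.802 FPKM. Of 10 macrophage and monocyte markers 2 rose and 6 fell with LPS, among them the mannose receptor gene Mrc1 with a difference of -3.98 (limma, adjusted p = 3.63e-06). The part of these cell types in the values of the 8 genes was not tested.

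Counted together, 1 of the 8 genes was called higher and 2 lower in LPS against Control. Of all 11141 genes tested, 12.3% were called higher and 28.7% lower, 41% in all, so 3 of 8 is a share near the background. With the library number as a block 6 of the 8 were called, 3 in each direction, beside 17.2% of all genes higher and 35.5% lower, 52.6% in all. With libraries 1 and 3 alone 5 were called, beside 44.7%. Groups did not overlap for 1 gene higher and 3 lower, beside 17.5% and 37.6% of all genes. In LPS+EVs against Control 2 genes were called higher and 2 lower, where the background was 13.5% and 30.8%, or 44.3% in all. Groups did not overlap for 3 genes higher and 2 lower, beside 19.6% and 40.6%. With the block 3 were called higher and 2 lower, 5 in all, beside 17.8%, 37.4% and 55.2%. Both comparisons share the Control libraries.

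The median log2 difference of all tested genes was -0.19 in LPS against Control and in LPS+EVs against Control, and that of the 8 genes was -0.01 and 0.00. Scaling by median of ratios puts the median of all genes at 0, and splits the LPS calls over all genes into 1895 higher and 2307 lower, against 1368 and 3201 with the deposited scaling. For LPS+EVs against Control the split was 2081 and 2481, against 1505 and 3436. Under this scaling LPS minus Control was -1.37 for Ocstamp, -0.71 for Car2, 0.70 for Acp5 and 1.09 for Itgb3, each past the threshold (limma, adjusted p = 0.0314, 0.0394, 0.00441 and 0.044).

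**Figure D3:**
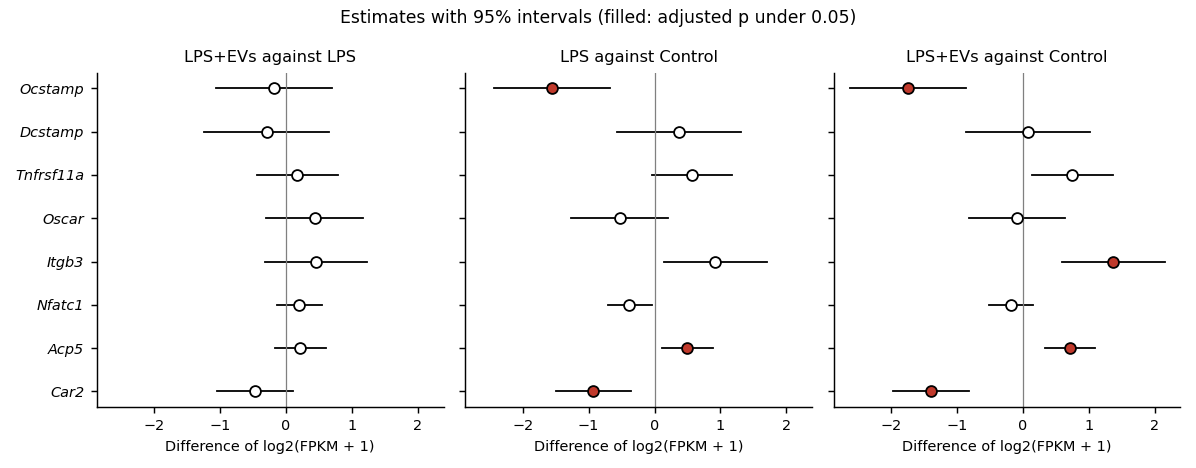
Estimated differences of log2(FPKM + 1) with 95% intervals for the 8 genes in LPS+EVs against LPS, LPS against Control and LPS+EVs against Control (3 libraries a group), with filled points for an adjusted p under 0.05. No point is filled in LPS+EVs against LPS, and the filled points are Ocstamp, Acp5 and Car2 for LPS and these 3 with Itgb3 for LPS+EVs against Control.

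The comparison of LPS+EVs with LPS asks what the vesicles change in cells that also received LPS. None of the 8 genes was called, and neither was any of the 11141 genes (0%) by limma, by limma on the recovered reads or with the library number as a block. At an unadjusted p under 0.05 there were 295 genes, 2.65% of those tested, and none of the 8 was among them. The lowest unadjusted p of the 8 was 0.0983, for Car2, whose difference was -0.47 with a 95% interval of -1.05 to 0.11 (limma, adjusted p = 0.999). The adjusted p was 0.999 for each of the others too.

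In the fit without the library number, the 95% intervals of the differences, LPS+EVs minus LPS, were wide for the fusion genes. They were -1.07 to 0.69 for Ocstamp and -1.24 to 0.65 for Dcstamp, which for Ocstamp is a fold of 0.477 to 1.61 on the FPKM + 1 scale. They were narrower for Nfatc1, at -0.13 to 0.54, and for Acp5, at -0.17 to 0.60. For Tnfrsf11a the interval was -0.44 to 0.79, for Oscar -0.30 to 1.17 and for Itgb3 -0.32 to 1.23.

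Oscar was the member whose LPS+EVs and LPS libraries did not overlap. LPS+EVs cultures averaged 2.24 ± 0.273 FPKM and LPS cultures 1.39 ± 0.155 FPKM (SD, n = 3 each), a difference of 0.44 (limma, adjusted p = 0.999). The ratios within library numbers 1, 2 and 3 were 1.65, 1.56 and 1.63. Groups did not overlap, with LPS+EVs higher, for 3.14% of all genes in this comparison. Within library numbers, Acp5, Nfatc1, Tnfrsf11a, Oscar and Itgb3 were higher in LPS+EVs in all 3 pairs and Car2 was lower in all 3. That is 6 of 8 genes with one direction in 3 pairs, and 33.6% of all genes had one, 16.7% higher and 16.8% lower. The pairs of Tnfrsf11a included a ratio of 1.01, and that of Car2 in number 2 was 0.933.

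The order of the levels also differed between groups. Car2 was the highest of the 8 in every group, and its lowest library lay above the highest library of the next gene. In LPS+EVs cultures Acp5 (21.6) and Dcstamp (18.3 FPKM) followed with overlapping ranges, then Itgb3 and Nfatc1 apart from their neighbours, Ocstamp and Tnfrsf11a in overlap, and Oscar last. In LPS cultures Dcstamp (24.1) and Acp5 (18.3 FPKM) overlapped, then Itgb3, Nfatc1, Ocstamp and Tnfrsf11a, each overlapping the next, and Oscar last. In Control cultures Dcstamp (16.9), Ocstamp (16.7) and Acp5 (12.6 FPKM) overlapped, followed by Nfatc1 and then by Itgb3, Oscar and Tnfrsf11a in overlap.

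Counts of called genes in the lists that follow, and in the marker lists above, are for LPS against Control. There 12.3% of all tested genes were called higher and 28.7% lower (17.2% and 35.5% with the library number as a block). Among the ligands, receptors and decoys of osteoclast formation, 6 were tested, and 2 rose and 1 fell with LPS (3 and 1 with the block). The TNF receptor gene Tnfrsf1b rose by 2.03 and Csf1, the gene of the growth factor M-CSF, by 0.91, while the M-CSF receptor gene Csf1r fell by 0.64 (limma, adjusted p = 5.09e-05, 0.0296 and 0.014). The RANKL gene Tnfsf11 was at 6.38, 0.718 and 12.9 FPKM in LPS+EVs libraries, at 19.3, 0.256 and 12.1 FPKM in LPS libraries, and at 2.39, 0.570 and 5.11 FPKM in Control libraries. Number 2 was low in every group, and LPS minus Control was 1.12 with a standard error of 1.12 (limma, adjusted p = 0.447). The summed stromal and osteoblast markers, from cells that make RANKL, were 446, 148 and 789 FPKM in LPS+EVs libraries, 575, 107 and 281 in LPS libraries and 273, 146 and 341 in Control libraries over 12 genes. These sums too were lowest in number 2 of each group, and most of each was the collagen genes Col1a1 and Col1a2. Of the 9 tested genes of this marker list, 1 was called higher and 0 lower with LPS (2 and 2 with the block). Of the same list, Sp7, Bglap and Ibsp did not exceed 0.762 FPKM. Runx2 was highest in number 2 of Control (1.18) and LPS (1.15 FPKM) but lowest in number 2 of LPS+EVs (1.09 FPKM). The part of such cells in the Tnfsf11 values was not tested. The decoy receptor gene Tnfrsf11b did not pass the filter.

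Of 21 tested genes that carry signals from RANK and the ITAM co-receptors, 5 rose and 6 fell with LPS (6 and 7 with the block), with a median log2 difference of 0.09. The fallen ones include 3 of the kinase and adaptor relay behind the ITAM receptors: Syk (-1.10), Btk (-1.39) and the adaptor Blnk (-1.71; limma, adjusted p = 0.000193, 0.000711 and 0.00124). The calcineurin subunit gene Ppp3cb, whose phosphatase activates NFAT proteins, changed by -0.70 (limma, adjusted p = 0.00145). The risen ones include Traf6 (0.88), Gab2, an adaptor recruited to RANK (0.68), and Tec (0.38; limma, adjusted p = 0.00443, 0.00246 and 0.0406). In LPS+EVs against Control 6 rose and 6 fell, where 13.5% of all tested genes were called higher and 30.8% lower. Gab2 was among the risen there too, at 0.91 (limma, adjusted p = 0.00062).

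Transcription factors that act with NFATc1 were split as well, with 4 of 18 higher and 3 lower in LPS against Control (6 and 3 with the block) and a median of 0.20. Myc changed by -3.07, the myeloid factor PU.1 (Spi1) by -0.88 and Pparg by -1.77, whereas the AP-1 gene Fosl1 changed by 2.01 (limma, adjusted p = 1.78e-05, 0.00209, 0.00864 and 0.00689). Among the other NFAT genes 2 of 3 tested were higher, Nfat5 by 1.5 and Nfatc4 by 0.84, and none was lower (limma, adjusted p = 0.000984 and 0.0298). The counts of this list and of the repressors were the same with the block. Of 7 repressors of osteoclast genes 3 were higher and none lower: Rbpj (1.18), Bcl6 (1.17) and Id3 (1.47; limma, adjusted p = 0.00197, 0.0155 and 0.0321). These 3 were also called higher in LPS+EVs against Control, which shares the Control libraries.

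Other cell fusion genes moved both ways, with 5 of 15 higher and 5 lower in LPS against Control (5 and 6 with the block) and a median of 0.29. The membrane glycoprotein gene Cd200 was at 179.9, 235 and 178 FPKM in LPS+EVs libraries, at 171, 258 and 163 FPKM in LPS libraries, and at 26.5, 32.1 and 39.9 FPKM in Control libraries, with no overlap between treated and Control (LPS minus Control 2.54, limma, adjusted p = 6.78e-05). Sirpa, the receptor of CD47, changed by -0.85 and the E-cadherin gene Cdh1 by -1.61, while the sorting nexin gene Snx10 changed by 0.56 (limma, adjusted p = 0.00282, 0.00612 and 0.00445).

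Of 13 genes of acid secretion and matrix breakdown, 2 were higher and none lower with LPS: Ostm1 (0.60) and Plekhm1 (0.64), both needed for resorption by human and mouse osteoclasts (limma, adjusted p = 0.00522 and 0.0177). With the block the anion exchanger gene Slc4a2 was called lower, at -0.60 (limma, adjusted p = 0.044 with the block and 0.078 without). The proteinase gene Ctsk, the classical product of osteoclasts, was at 27.9, 26.3 and 12.8 FPKM in LPS+EVs libraries, at 35.7, 27.4 and 12.6 FPKM in LPS libraries, and at 22.6, 25 and 13.4 FPKM in Control libraries, with the groups overlapping throughout. Of 21 genes of integrin adhesion and podosomes 4 were higher and 6 lower, with the kinase gene Ptk2b at 1.40 and the adhesion adaptor Pxn at -1.11 (limma, adjusted p = 0.00117 and 0.000982). With the block these counts were 7 and 7, with the osteopontin gene Spp1 (1.46), the kinase gene Src (0.97) and the vinculin gene Vcl (0.56) gained as higher and the integrin gene Itgb5 (-0.91) as lower (limma, adjusted p with the block = 0.00241, 0.019, 0.00625 and 0.00229). Of 6 other carbonic anhydrases tested, 2 were called higher and none lower, Ca13 by 0.82 and Ca12 by 1.98 (limma, adjusted p = 0.00138 and 0.0113). With the block 4 were called higher and 1 lower, with Ca4 (1.86), Ca9 (0.51) and Ca5b (-0.90) gained (limma, adjusted p with the block = 0.000445, 0.0409 and 0.00323). In LPS+EVs against LPS no gene of any of these lists was called.

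**Figure D4:**
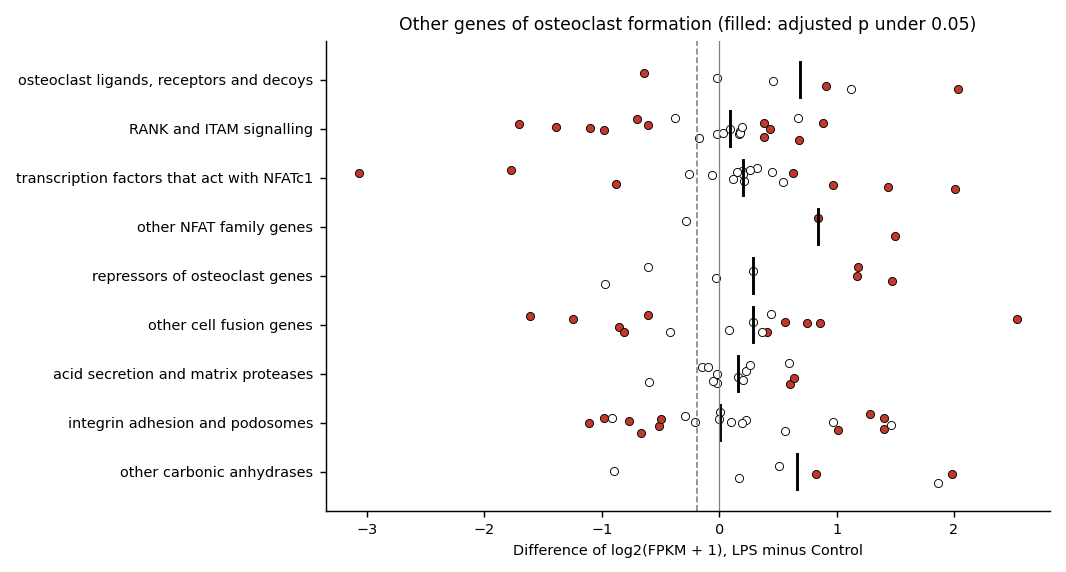
LPS minus Control differences of log2(FPKM + 1) for the tested genes of 9 lists of osteoclast formation, a point per gene, filled for an adjusted p under 0.05, with a black bar at each list's median and a dashed line at the median of all genes (-0.19). Of the 9 lists 5 hold filled points on both sides of 0, and the repressor, other NFAT, acid secretion and other carbonic anhydrase lists hold them on the higher side alone.

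The genes whose pattern over the 9 libraries came closest to each member were found by the root mean square difference of log2(FPKM + 1) after each gene was centred on its own mean. Closest to Ocstamp were Aspa (0.215), Clec12a (0.268) and Bcl2 (0.289), where the spread of Ocstamp about its own mean was 0.905. Clec12a, a myeloid inhibitory lectin receptor, averaged 27.1 FPKM in LPS+EVs, 31.8 in LPS and 94.9 in Control. Close to Acp5 were S1pr2 (0.089) and Fcgr2a (0.106), against a spread of 0.347 for Acp5. The sphingosine-1-phosphate receptor gene S1pr2 averaged 29.6 FPKM in LPS+EVs, 23.3 in LPS and 16.8 in Control, and the Fc receptor gene Fcgr2a averaged 316 in LPS+EVs, 270.2 in LPS and 190.2 in Control.

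Closest to Car2, whose spread was 0.648, were Ptges3 (0.205), Abracl (0.208) and the mitochondrially encoded ND1 (0.227). Closest to Itgb3 were Mocos (0.181), Pacsin3 (0.223) and Lhfpl2 (0.227), with a spread of 0.693 for Itgb3, and Lhfpl2 averaged 59.9 FPKM in LPS+EVs, 44.4 in LPS and 21.6 in Control. Closest to Oscar were Jak3 (0.162), Prkar2b (0.176) and Mgat4a (0.184), with a spread of 0.43. For Tnfrsf11a they were Gls2 (0.147), LOC103691165 (0.152) and Gpr157 (0.174), with a spread of 0.434. For Nfatc1 they were Wdr73 (0.067), Rabl6 (0.074) and Fam149b1 (0.078), with a spread of 0.203, and for Dcstamp they were Mamdc2 (0.214), Atp6v1fnb (0.216) and Cuedc1 (0.22), with a spread of 0.512. None of the 8 genes was among the closest 3 of another.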

How the data were processed

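RNA-seq libraries from 9 cultures were grouped by their labels, 3 in each group. The submitters' processing notes name HISAT2, HTSeq and fastp, the build mRatBN7.2 and R 3.2.0. The settings, and whether strand was used in counting, are not given in the sources used here. The authors deposited FPKM per gene. For each of the 18833 genes above 0 in 2 or more libraries, whole reads were recovered from the FPKM steps, with a tolerance of 0.005 reads, and these served for depth and for 1 alternative test. The filter kept genes that reached 1 FPKM in 3 or more libraries. After 1 was added and log2 taken, a single limma model (3.58.1, R 4.3.3) with a mean for each group and a variance trend was fitted to the 9 libraries. P-values are two-sided, adjusted by Benjamini-Hochberg over all 11141 genes, with a threshold of 0.05. The fit was checked on simulated data.

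The members, gene lists and tests were chosen with earlier results of these data known. Beside the 8 members, up to 4 genes of a list with the smallest adjusted p were named, and the 3 genes most alike to each member, of which 1 is not reported here. Tnfsf11, Tnfrsf11b, Traf6, Tec, Ctsk, Itgax, Flt3, Xcr1, Cd74, Irf4, Batf3, Zbtb46, Spp1, Src, Vcl, Itgb5, Ca9 and single markers given beside a sum were named outside that rule, after their values were seen. Deviations from group means correlated at 0.284 to 0.863 between libraries of the same number and at -0.745 to 0.426 between others, so the numbers were treated as pairing the libraries, and a fit with the number as a block is given where it changes a call of a member or the count of a list in LPS against Control. The numbers come from the sample titles. Alternatives were 0.1 added before log2, no filter, median-of-ratios scaling, the compared groups alone, the block, libraries 1 and 3 alone, limma-voom on recovered reads, and leaving out each library. Promoters are from RefSeq on GRCr8. Tables and figures were made with pandas 2.3.3, matplotlib 3.10.9 and numpy 2.4.6 in Python 3.11.15.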

Additional observations from a re-analysis of the deposited data

How the results depend on the processing

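The 4 calls in LPS+EVs against Control (Ocstamp, Car2, Acp5 and Itgb3) and the call of Ocstamp in LPS against Control held under every alternative run, and no member was called in LPS+EVs against LPS under any. The count of members called in LPS against Control was 3, and became 6 with the replicate block and 5 with libraries 1 and 3 alone. It ranged between 1 (without Control library 3) and 4 when each library was left out. The count over all genes in LPS+EVs against LPS ranged between 0 and 1 when each library was left out, with the 1 call made without LPS library 2.

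Directions turned for differences that had not passed. In LPS+EVs against Control, median-of-ratios scaling gave 0.0279 for Nfatc1 and 0.0683 for Oscar. Leaving out each library gave -0.5189 to 0.1921 for Oscar (above 0 without Control library 1 or 3) and -0.1979 to 0.2974 for Dcstamp (below 0 without Control library 3 or LPS+EVs library 1). In LPS against Control, Dcstamp was -0.023 to 0.7945, below 0 without LPS library 1. In LPS+EVs against LPS, Dcstamp was -0.7172 to 0.1003 (above 0 without LPS library 1), Ocstamp -0.4418 to 0.0871 (above 0 without LPS+EVs library 3), and Tnfrsf11a -0.0503 to 0.3942 (below 0 without LPS library 1 or LPS+EVs library 3). The log2 ratio of Dcstamp to Ocstamp in that comparison, chosen after seeing the data, was -0.5985 to 0.4001, above 0 without LPS+EVs library 2 or LPS library 1 or 3. Tnfrsf11a in LPS+EVs against Control, at an adjusted p of 0.0522 by limma, passed with 0.1 added before log2 (0.0481), median-of-ratios scaling (0.0213) and the compared groups alone (0.0366). The cause was not tested for any of these.

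The block changed no call of the 8 genes other than those of Tnfrsf11a, Itgb3 and Nfatc1 given in the report. With 3 libraries a group, precision is limited. The intervals printed for LPS+EVs against LPS are from the fit without the library number. With the block the standard errors there were smaller for each of the 8 genes. That of Tnfrsf11a was 0.14 against 0.27, and that of Nfatc1 0.14 against 0.15. Intervals of the block fit are not given.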
